A study of Homo sapiens with 5 samples.

Results

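The enzymes that write, erase and read acetyl marks on histones were followed at the transcript level in a liver cancer line that carried ACOT12 or a mutant of it. The set held 31 genes, chosen by name: 10 acetyltransferases, 18 deacetylases including the sirtuins, and 3 bromodomain readers. On the array they were measured by 51 of the 28264 probes, or 31 of the 19090 genes with a name. RNA came from 5 samples of MHCC97H, a human hepatocellular carcinoma line with high metastatic potential. Of these, 2 samples overexpressed ACOT12, 1 overexpressed an ACOT12 mutant and 2 carried the empty vector. All 5 had been selected with puromycin for 1 week, and all were grown in serum-containing medium without further treatment. The labels name neither the residue changed in the mutant nor whether a line was a pool or a clone, and whether replicates were grown apart is not stated, so each p refers to the variation among these arrays, which may be technical. The mutant had no replicate.

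Histone acetylation is set by acetyltransferases, which take the acetyl group from acetyl-CoA, and by deacetylases, which remove it. Zinc-dependent deacetylases of classes I, II and IV release acetate, while sirtuins consume NAD+. Bromodomain proteins of the BET family bind the acetylated tails and recruit the elongation machinery. ACOT12 is a cytosolic thioesterase that splits acetyl-CoA into acetate and coenzyme A. The comparisons therefore ask whether transcripts of the enzymes that use or remove the acetyl group differ when such a thioesterase, or its mutant, is overexpressed. Transcript levels do not report enzyme activity or acetylation itself.

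Each sample was read on 1 one-colour array, and precision is set by how few arrays there were. The median over probes was 816 and 825 on the ACOT12 arrays, 616 on the mutant array and 805 and 700 on the empty vector arrays. The dim end of the arrays differed more: the 10th percentile of intensity was 74.0 and 80.8 with ACOT12, 48.4 with the mutant and 50 and 31.5 with empty vector. The ACOT12 probe itself read 4733 and 4859 with ACOT12, 4030 with the mutant and 59.2 and 18.0 with empty vector. The overexpressed gene itself did not pass limma's test across all genes against empty vector, at 7.15 ± 0.50 log2 units with ACOT12 (adjusted p = 0.122) and 6.90 ± 0.62 with the mutant (adjusted p = 0.0688). A count of 0 calls in these comparisons is to be read beside that. The empty vector readings of ACOT12 lie in the dim end, so its SE does not stand for that of brighter genes. With an offset of 50 added before the log, limma passed it with ACOT12 (5.81, adjusted p = 0.00157) and with the mutant (5.57, adjusted p = 0.00390). Of the 13 hepatocyte and liver tumour markers on the array, 9 or 10 lay above the array median on every array, among them alpha-fetoprotein (AFP) and keratin 18, while APOA2 and GPC3 lay below the 25th percentile throughout.

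Among the acetyltransferases, the paralogous coactivators EP300 and CREBBP read 1453 to 3388 and 50423 to 82876 intensity units over the 5 arrays. KAT2A and KAT2B, catalytic subunits of the SAGA and ATAC coactivator complexes, read 15916 to 19455 and 800 to 1108. Intensities of different probes are not comparable as amounts of RNA, so these ranges describe each gene against itself. In the MYST family, KAT5 of the NuA4 complex read 10310 to 13542, KAT7 of the HBO1 complexes 7248 to 8196 and KAT6A 3460 to 4381. KAT8, which acetylates histone H4 in the MSL and NSL complexes, read 1697 to 2796, and KAT6B read 162 to 305, near the level below which probes were left out of the tests (161). HAT1, which acetylates newly made H4 before its deposition, read 24317 to 29324.

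The brightest probes of the class I deacetylases read far above the median of every array. HDAC1 and HDAC2, shared by the SIN3, NuRD and CoREST complexes, read 39608 to 46250 and 7875 to 9547. HDAC3, the enzyme of the NCoR and SMRT corepressors, read 8004 to 11136, and HDAC8, which acts on cohesin, 7719 to 9665. Of class IIa, whose members shuttle between nucleus and cytoplasm and bind MEF2 factors, HDAC4 read 1655 to 2631, HDAC7 2479 to 2994 and HDAC9 2379 to 3153. The probe of HDAC5 read 84.5 to 116 and fell below the filter, so HDAC5 was the 1 member without a test. HDAC6, the tubulin deacetylase, read 8834 to 10557, HDAC10, a polyamine deacetylase, 1378 to 2525, and HDAC11, the class IV enzyme, 3589 to 4866.

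Of the nuclear sirtuins, SIRT1 read 2416 to 2979, SIRT6 693 to 771 and the nucleolar SIRT7 32890 to 53249. SIRT2, mainly cytosolic, read 5624 to 7781. The mitochondrial enzymes read 981 to 1126 (SIRT3), 211 to 365 (SIRT4) and 2429 to 2763 (SIRT5, which removes succinyl and malonyl groups). The BET readers BRD2 and BRD3, expressed in most tissues, read 17377 to 20521 and 5741 to 7431. BRDT, the BET protein of male germ cells, read 264 to 1220, the widest relative range of the 31 genes.

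**Figure D1:**
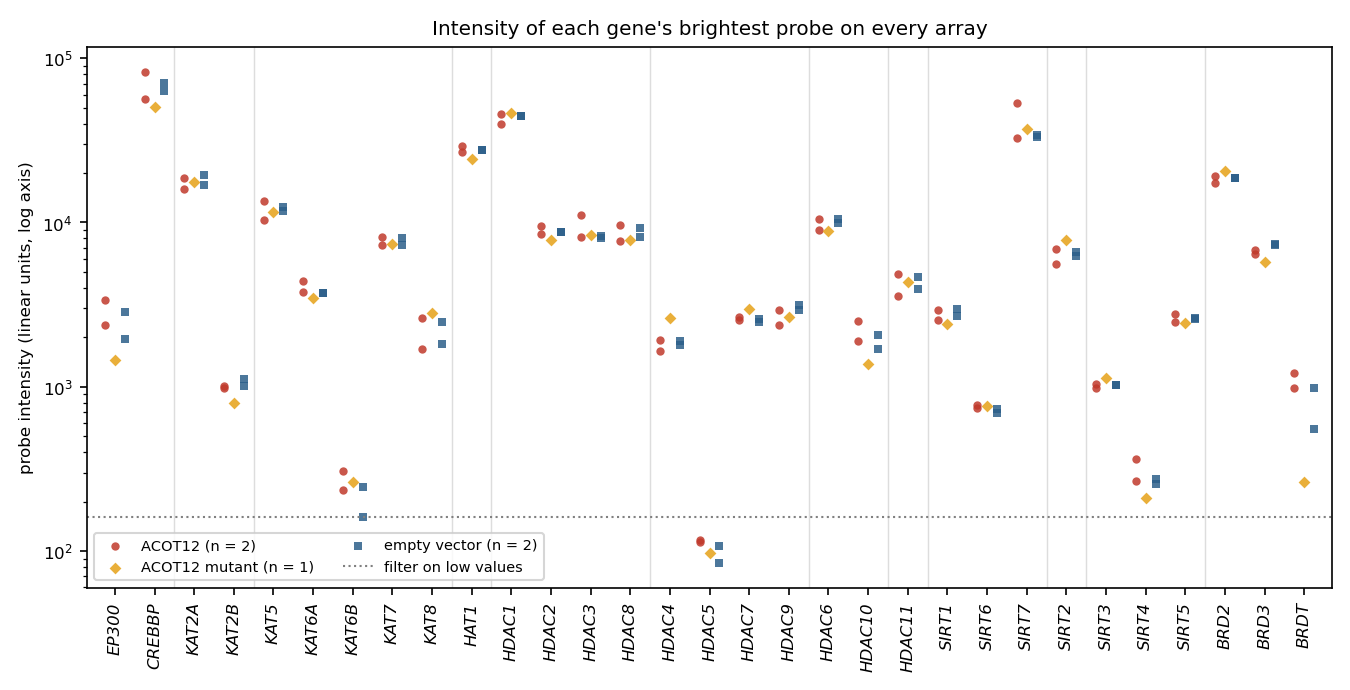
Intensity of each member's brightest probe (log axis) on the 2 ACOT12 arrays, the 1 mutant array and the 2 empty vector arrays, with members in order of role and the filter at 161 units as a dotted line. HDAC5 lies below the filter on all arrays, and the mutant reading of BRDT lies below its other 4.

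With ACOT12, no member passed the test against empty vector. BRDT read 978 and 1220 intensity units with ACOT12, against 976 and 555 with empty vector, so the lower ACOT12 reading and the higher empty vector reading were nearly equal. KAT6B, a MYST acetyltransferase, read 305 and 236 with ACOT12 and 246 and 162 with empty vector. SIRT7 read 53249 and 32890 with ACOT12, against 33086 and 34210 with empty vector. In both KAT6B and SIRT7 the groups overlapped, and in SIRT7 a single ACOT12 array was high.

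On the log2 scale these 3 differences were 0.57 ± 0.29 (SE) for BRDT, 0.42 ± 0.25 for KAT6B and 0.32 ± 0.25 for SIRT7. Of the members next in order of p, SIRT4 read 0.24 ± 0.20, HDAC3 0.23 ± 0.20 and HDAC10 0.22 ± 0.21, while HDAC9 read -0.20 ± 0.17 and BRD3 -0.16 ± 0.15. These values moved with single arrays. BRDT read 0.98 and KAT6B 0.72 without empty vector replicate 1, and 0.16 and 0.12 without empty vector replicate 2. Without ACOT12 replicate 1 SIRT7 and HDAC3 read -0.03 and -0.001, and SIRT4 and HDAC10 0.47 and 0.43. Without ACOT12 replicate 2 SIRT4 and HDAC10 read 0.005 and 0.013. KAT6B also read 0.11 after quantile normalization. Over the 30 members tested, limma's adjusted p lay between 0.994 and 0.999, beside 0% of the 15053 genes past the threshold of 0.05. At an unadjusted p under 0.05 there were 0 of 30 members and 3% of all genes (2.55% higher and 0.452% lower with ACOT12).

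The 30 differences ran from -0.20 to 0.57, with 15 members higher and 15 lower and a median of 0.00, against 0.05 for all genes tested. Of the 30, 22 differed by less than 0.2 log2 units. Their 95% intervals all included 0, with half-widths from 0.36 to 0.72 (median 0.41), so differences smaller than this were not resolved with 2 arrays a group. The 2 groups were apart for 4 members, or 13.3%, against 31.7% of all genes (20.2% higher and 11.5% lower). KAT6A (4381 and 3755 with ACOT12 against 3707 and 3730 with empty vector), SIRT6 (744 and 771 against 693 and 733) and BRDT were higher in both ACOT12 arrays. BRD3 was lower, at 6796 and 6439 against 7328 and 7431.

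**Figure D2:**
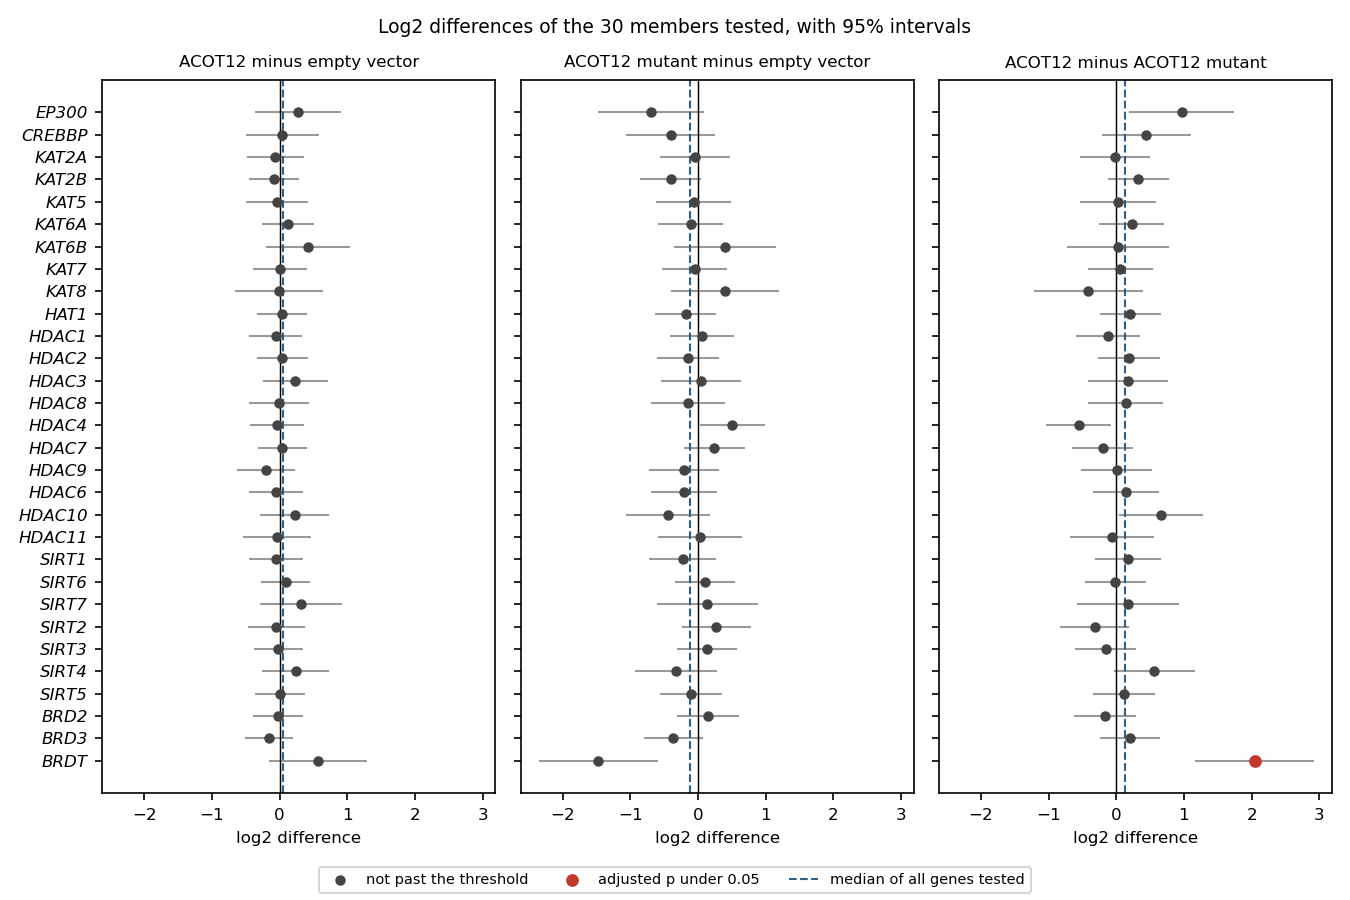
Log2 differences (points) with 95% intervals (bars) for the 30 members tested, in the comparisons of ACOT12 with empty vector, mutant with empty vector and ACOT12 with mutant, beside the median of all genes tested (dashed line). In the first panel every interval includes 0, and in the third BRDT, at 2.05, is the 1 member past the threshold.

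Replicates of ACOT12 were further apart than those of empty vector. Between the 2 ACOT12 arrays the median absolute difference was 0.23 log2 units over the members and 0.20 over all genes. Between the 2 empty vector arrays it was 0.08 and 0.15. The spread within the ACOT12 group differed among members. CREBBP read 82876 and 56675, KAT5 13542 and 10310, and HDAC3 11136 and 8113 in the 2 ACOT12 arrays, against 70391 and 63367, 11775 and 12486, and 8004 and 8231 with empty vector. KAT8, EP300 and SIRT4 were higher on the other ACOT12 array, with 1697 and 2606, 2378 and 3388, and 265 and 365. HAT1, at 26966 and 29324, and BRD2, at 17377 and 19287, were closer together.

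With the mutant, again no member passed against empty vector, where 0.0332% of all genes did (5 genes, all lower). After centring the array medians 550 genes passed as higher and 896 as lower. That centring also changed the estimate of spread, with an SE of 0.301 for BRDT, EP300 and HDAC4 alike. The single mutant array read 264 for BRDT, against 976 and 555 with empty vector, a log2 difference of -1.48 ± 0.36 (SE; limma, adjusted p = 0.106). EP300 read 1453 with the mutant and 2832 and 1952 with empty vector (-0.69 ± 0.32, adjusted p = 0.289). HDAC4 read 2631 with the mutant and 1798 and 1897 with empty vector (0.51 ± 0.20, adjusted p = 0.222). For the brightest probe of each of these 3 genes the mutant array lay outside both empty vector arrays, as for 84.3% of all genes, while the second probe of EP300 read 539 with the mutant, between 647 and 498 with empty vector. These differences rest on the same empty vector arrays as the comparison above.

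Other members in order of p were KAT2B (-0.40 ± 0.19), BRD3 (-0.36 ± 0.18), HDAC10 (-0.44 ± 0.25), CREBBP (-0.41 ± 0.27) and HDAC7 (0.24 ± 0.18), with adjusted p from 0.290 to 0.507. BRD3 read 5741 with the mutant, lower than in the other 4 arrays. At an unadjusted p under 0.05 there were 2 members of 30, BRDT (lower) and HDAC4 (higher), against 20.7% of all genes (3.69% higher and 17% lower). The mutant array lay outside both empty vector arrays for 27 members, or 90%, against 84.3% of all genes. Of the 27, 11 were higher and 16 lower, where 29.6% and 54.7% of all genes were. The members' median was -0.08 and that of all genes -0.13, with 12 members higher and 18 lower. Centring the arrays on their medians turned these medians to 0.20 and 0.16, so the direction of the set depends on the scaling. BRDT read -1.88 without empty vector replicate 2 and -1.07 without empty vector replicate 1.

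The direct comparison of ACOT12 with its mutant gave the 1 call among the members. BRDT read 978 and 1220 intensity units with ACOT12, against 264 with the mutant. Both ACOT12 arrays lay far above the mutant array, and 1 of the empty vector arrays (976) lay at the level of ACOT12. The log2 difference was 2.05 ± 0.36 (SE; 4.13-fold on the log2(intensity + 1) scale; limma, adjusted p = 0.0349, 95% interval 1.17 to 2.92). This is 1 of 30 members, where 9.23% of all genes passed. With ACOT12 9.21% (1386 genes) were higher and 0.0199% (3) lower. After centring the array medians, which also changed the estimate of spread, 1339 were higher and 683 lower. The call was lost without ACOT12 replicate 1 (2.20, adjusted p = 0.258), without ACOT12 replicate 2 (1.89, adjusted p = 0.230), after quantile normalization (1.57, adjusted p = 0.0534) and without a filter on low values (adjusted p = 0.123). Without either ACOT12 array 0 of the 15053 genes passed. In the other alternatives that tested BRDT its adjusted p lay below 0.05.

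By mean intensity BRDT lies in the lower part of the genes tested, where genes in general read higher with ACOT12 than with the mutant. Among all probes it stood at percentiles 46.4 to 56.6 on the ACOT12 and empty vector arrays and 37.3 on the mutant array. The low mutant reading enters its mean. In the quintile of genes that holds BRDT by mean intensity, the median difference was 0.30 log2 units and 15.7% were past the threshold, against -0.01 and 0.664% in the brightest quintile. Male germ cell markers summed to 1029 and 1102 intensity units with ACOT12, 648 with the mutant and 942 and 706 with empty vector. Of these 6 markers 0 lay above the median of any array, and 4 or 5 lay under its 25th percentile, among them DAZL, TNP1 and PRM1. Of the 2 tested, ACRV1, a protein of the sperm acrosome, passed as higher with ACOT12 than with the mutant, at 302 and 328 against 113, a mutant reading under the filter level of 161. That call also needs both ACOT12 arrays. The other one tested, SYCP3 of the synaptonemal complex, read 273 and 244 with ACOT12 against 271 with the mutant (-0.07, adjusted p = 0.891). Of the 6 endothelial markers, 0 lay under the 25th percentile of any array and 1 to 3 lay above its median. They summed to 4638 and 5486 with ACOT12, 2723 with the mutant and 4882 and 3952 with empty vector. Of the 6, 2 passed as higher with ACOT12 than with the mutant. Fibroblast markers summed to 9403 and 8897 with ACOT12, 5334 with the mutant and 9058 and 6741 with empty vector, with 2 of 4 tested past the threshold. Leukocyte markers summed to 21434 and 25600 with ACOT12, 21066 with the mutant and 22032 and 21400 with empty vector, with 0 of 5 tested past it. The part of these markers in the result was not tested. With the arrays' background equalized, the BRDT difference was 1.89 (adjusted p = 0.0280).

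**Figure D3:**
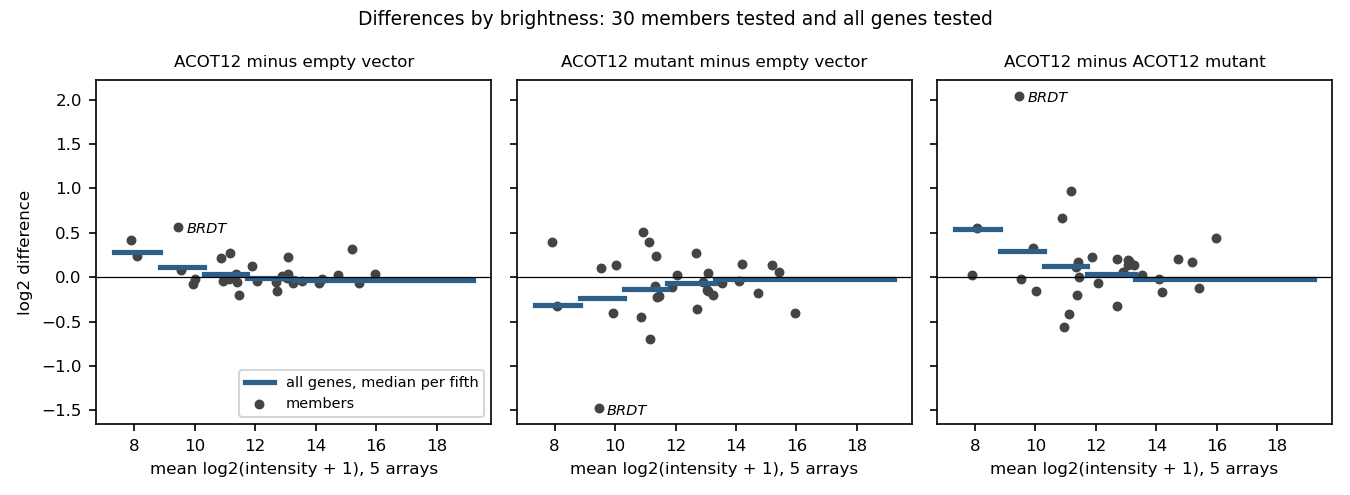
Log2 difference of the 30 members tested (points) against mean log2 intensity, with the median of all genes in each quintile of brightness (horizontal lines), for each comparison. Between ACOT12 and mutant the medians of all genes run from 0.55 in the dimmest quintile to -0.01 in the brightest, and BRDT stands at 2.05.

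The 300 bases around the annotated starts of BRDT and BRD2 (RefSeq, GRCh38.p14, plus strand, 250 bases before and 50 after the start) are shown because BRDT was the 1 member that passed and BRD2 is a paralogue of the same family that differed by -0.17 ± 0.19 in the same comparison. BRDT lies at chr1:91949121-91949420 and BRD2 at chr6:32968344-32968643. Capitals mark each CG pair and the letters TATAAA.
BRDT: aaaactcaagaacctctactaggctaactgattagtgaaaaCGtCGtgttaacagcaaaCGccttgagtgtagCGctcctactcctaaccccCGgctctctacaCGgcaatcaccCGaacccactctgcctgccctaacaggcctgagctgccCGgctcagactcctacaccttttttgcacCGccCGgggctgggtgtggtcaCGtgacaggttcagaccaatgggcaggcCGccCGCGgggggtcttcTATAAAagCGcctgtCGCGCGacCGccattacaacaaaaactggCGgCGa
BRD2: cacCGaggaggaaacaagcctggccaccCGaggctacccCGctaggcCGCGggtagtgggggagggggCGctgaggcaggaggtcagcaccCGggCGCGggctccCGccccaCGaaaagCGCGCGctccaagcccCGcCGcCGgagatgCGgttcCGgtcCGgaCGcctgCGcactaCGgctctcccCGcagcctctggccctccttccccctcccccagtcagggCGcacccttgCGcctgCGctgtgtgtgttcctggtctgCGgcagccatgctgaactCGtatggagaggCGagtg
The BRDT window holds 21 CG pairs and the BRD2 window 30, against a median of 14 over 27305 promoters of this length and a median of 29 over the 27 members matched in the table. TATAAA, searched on both strands, occurs in BRDT alone of these 27 and in 12% of all promoters. It begins at the annotated start itself. HDAC4, with 3 CG pairs, and HDAC9, with 5, have the fewest among the members, and BRD3, with 56, the most. These are descriptions of the letters in the windows and were not set against the differences.

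In the main fit the other members stayed below the threshold between ACOT12 and mutant. EP300 read 2378 and 3388 with ACOT12 against 1453 with the mutant, a difference of 0.97 ± 0.32 (adjusted p = 0.133). Leaving out either empty vector array changes only the estimate of the spread of EP300, and its difference stayed at 0.97. Whether EP300 lay past the threshold depended on that estimate of spread. HDAC10 read 1891 and 2525 with ACOT12 and 1378 with the mutant (0.67 ± 0.25, adjusted p = 0.190). HDAC4 read 1655 and 1935 with ACOT12 and 2631 with the mutant (-0.56 ± 0.20, adjusted p = 0.163). For the brightest probe of each of these 3 genes both ACOT12 arrays lay on the same side of the mutant array, as for 73.6% of all genes, while for the second probe of EP300 they lay on either side of it.

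SIRT4 (0.56 ± 0.25), CREBBP (0.44 ± 0.27), KAT2B (0.32 ± 0.19) and SIRT2 (-0.32 ± 0.21) followed, with adjusted p from 0.259 to 0.470. The ACOT12 readings were 265 and 365 for SIRT4 and 1016 and 988 for KAT2B, against 211 and 800 with the mutant. SIRT4 and KAT2B changed direction with the scaling, to -0.05 and -0.03 after quantile normalization. Over the 30 members the median was 0.12 and over all genes 0.13, with 20 members higher and 10 lower with ACOT12. Centring the array medians turned both medians, to -0.29 and -0.28. At an unadjusted p under 0.05 there were 4 members of 30, which were BRDT, EP300, HDAC4 and HDAC10, and 22.6% of all genes (21% higher and 1.56% lower with ACOT12). The ACOT12 arrays were apart from the mutant array for 66.7% of members and 73.6% of all genes (13 members higher and 7 lower, against 51.1% and 22.5% of all genes).

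**Figure D4:**
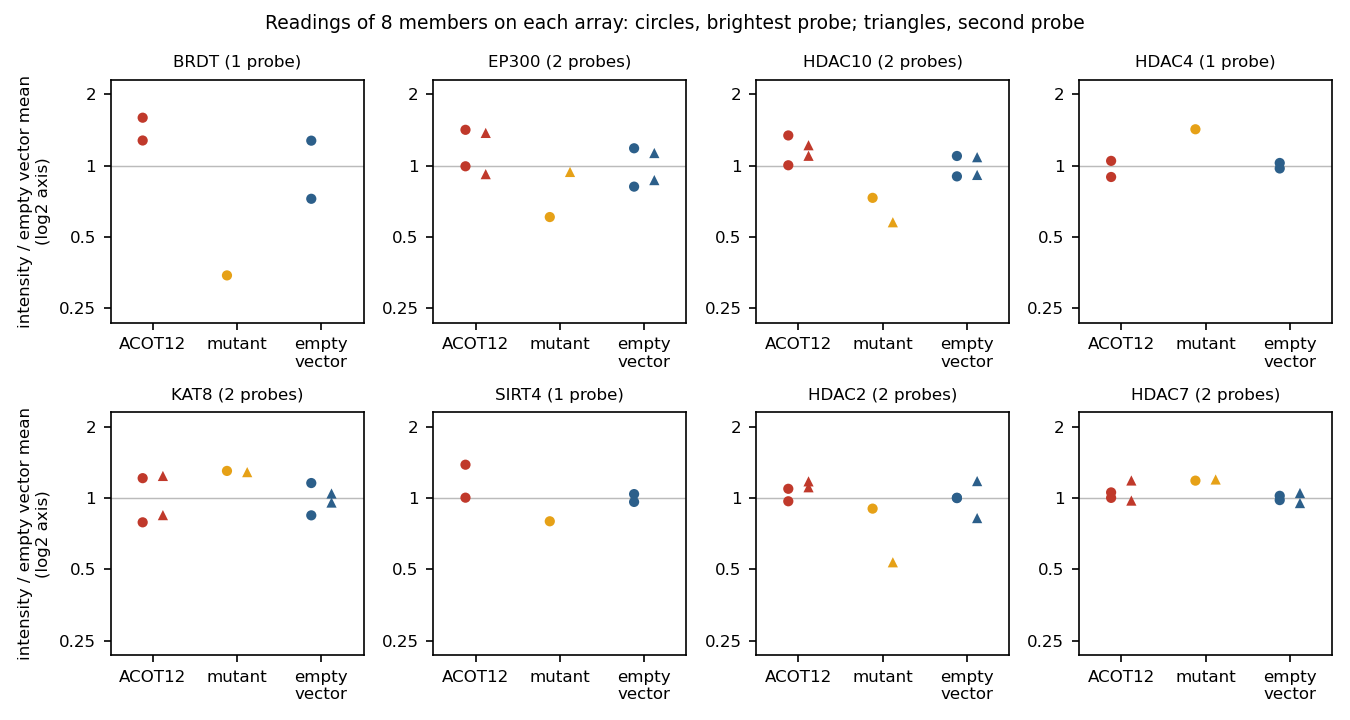
Intensity of 8 members relative to their empty vector mean (log2 axis) on the ACOT12, mutant and empty vector arrays, with the brightest probe as circles and a second probe, where there is one, as triangles. The mutant reading is lowest for BRDT and SIRT4 (1 probe each), both probes of HDAC10 and of HDAC2, and the brightest probe of EP300. The second probe of EP300 puts the mutant between the empty vector arrays. For HDAC4, KAT8 and HDAC7 the mutant reading is highest.

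For the 15 members with more than 1 probe, the probes often differed in size and sometimes in sign. Between ACOT12 and mutant all probes read higher with ACOT12 in 10 genes, all lower in 2 (KAT8 and HDAC7), and they disagreed in KAT6A, HDAC11 and SIRT3. Both probes of HDAC10 were higher with ACOT12, by 0.67 and 1.00 (the second at 454 and 503 with ACOT12 against 238 with the mutant). The second, dimmer probe of EP300 read 0.26 where the main one read 0.97, at 527 and 787 with ACOT12 against 539 with the mutant. The second probe of HDAC2 read 1.09, at 425 and 401 with ACOT12 against 194 with the mutant, where its bright main probe read 0.19. The size for EP300 and HDAC2 thus depends on the probe.

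The 5 probes of HDAC8 stayed within 0.04 to 0.19 between ACOT12 and mutant. For KAT8 both probes read lower with ACOT12 than with the mutant, by -0.41 and -0.33, although the ACOT12 replicates (1697 and 2606 for the main probe) were further apart than that. Both HDAC7 probes read highest with the mutant, at 2994 and 2957. Between ACOT12 and empty vector all probes were higher in 7 of the 15 genes, lower in 3 and mixed in 5. Between the mutant and empty vector they were higher in 2, lower in 10 and mixed in 3.

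Partners and cofactor enzymes of the members were counted in 6 lists. With ACOT12 against empty vector, 0 of 52 subunits of acetyltransferase complexes, 0 of 37 subunits of deacetylase complexes and 0 of 33 other bromodomain and YEATS readers passed, with medians of 0.02, -0.01 and 0.01. The same count of 0 held for 15 other lysine acetyltransferases, 18 genes of NAD+ metabolism and 14 of acetyl-CoA supply, beside 0% of all genes. Their medians were 0.049, 0.045 and -0.078, beside 0.052 for all genes. Of the acetyl-CoA supply genes 3 read higher and 11 lower, where 61.4% of all genes read higher. That list was brighter than all genes, with a median mean log2 intensity of 12.87 against 11. At an unadjusted p under 0.05 lay ASF1B (0.48 ± 0.17), a histone H3 and H4 chaperone, and BST1 (0.70 ± 0.19), an ectoenzyme that degrades NAD+, where 3% of all genes did. ASF1B read 3029 and 2516 with ACOT12 and 1897 and 2076 with empty vector. With the mutant against empty vector 0 genes of the 6 lists passed, beside 0.0332% of all genes. KANSL3 of the NSL complex read 18945 with the mutant against 30670 and 31057 with empty vector (-0.70 ± 0.18, adjusted p = 0.113). MIER1, a corepressor that binds HDAC1 and HDAC2, read -0.96 ± 0.24 (adjusted p = 0.114), but -0.20 with the mean of its probes. Without empty vector replicate 2 it read -1.19. TNRC18, of the same list, read 0.69 ± 0.21 and ELP3, the catalytic subunit of Elongator, 0.54 ± 0.18. Also at an unadjusted p under 0.05 (limma), and lower with the mutant, were NMNAT2 (-1.42 ± 0.30), DPF3 (-1.26 ± 0.29), AOX1 (-0.85 ± 0.22), TAF1 (-0.73 ± 0.21), ATAT1 (-0.70 ± 0.19) and ATXN7 (-0.52 ± 0.19). Most genes named here thus read lower, and TNRC18 and ELP3 higher. Of all genes 17% lay lower and 3.69% higher at that p.

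Between ACOT12 and mutant, 2 genes of these lists passed as higher with ACOT12 and 0 as lower. They were 1 of 18 genes of NAD+ metabolism (5.56%) and 1 of 33 other readers (3.03%), where 9.21% of all genes passed as higher. The lists' shares thus lay below that of all genes. Each rests on a single gene, and the lists were not matched to all genes for brightness. Over all genes the share past the threshold fell from 18.1% in the dimmest quintile to 0.664% in the brightest. NMNAT2, which makes NAD+ at cytosolic membranes, was one. It read 856 and 779 with ACOT12, against 258 with the mutant and 864 and 551 with empty vector (1.66 ± 0.30, adjusted p = 0.0349). DPF3, a reader of acetylated histone H3 in the BAF remodelling complex, was the other, at 254 and 228 with ACOT12, 79.4 with the mutant and 239 and 153 with empty vector (1.59 ± 0.29, adjusted p = 0.0353). The mutant reading of DPF3 and 1 of its empty vector readings lie under the filter level of 161, which DPF3 passed by its mean over the arrays, so the size of its difference is uncertain. Like BRDT, both read lowest on the mutant array and close to the ACOT12 level on 1 empty vector array. Both calls were lost under the same settings as that of BRDT: NMNAT2 read 1.59 and 1.73 and DPF3 1.51 and 1.66 without ACOT12 replicates 1 and 2 (adjusted p = 0.258 and 0.230), and without a filter the adjusted p was 0.123 for each. After quantile normalization NMNAT2 read 1.15 (adjusted p = 0.0596) and DPF3 0.96 (adjusted p = 0.0651). Others of these lists read higher with ACOT12 without passing in the main fit: MIER1 by 1.06 ± 0.24 (0.29 with the mean of its probes), ATAT1 0.79 ± 0.19, KANSL3 0.63 ± 0.18, ATXN7 0.54 ± 0.19, CRAT 0.38 ± 0.22, NNMT 0.97 ± 0.23, AOX1 0.97 ± 0.22, BST1 0.79 ± 0.23, BAZ2B 1.17 ± 0.34, DPF1 0.86 ± 0.28 and CECR2 0.69 ± 0.23. Of these, MIER1, AOX1, BAZ2B, DPF1, NNMT, ATAT1, KANSL3 and BST1 passed under 1 or more of the alternatives and not under others. The mutant readings of NNMT (123) and CECR2 (130) lie under the filter level of 161, so the sizes of their differences are uncertain too. TNRC18 (-0.53 ± 0.21), ELP3 (-0.46 ± 0.18) and ACSS1 (-0.46 ± 0.20), a mitochondrial acetyl-CoA synthetase, read lower, also without passing. After centring the array medians TNRC18 (-0.94, adjusted p = 0.0199) and ELP3 (-0.87, adjusted p = 0.0341) passed as lower, where 683 of the 15053 genes did. Leaving out either empty vector array changes only the estimate of the spread for MIER1, not its difference. Acetyltransferase complexes (0 of 52), deacetylase complexes (0 of 37), other acetyltransferases (0 of 15) and acetyl-CoA supply (0 of 14) had no call. Their medians were 0.02, 0.04, 0.04 and -0.02 beside 0.13 for all genes. By median mean log2 intensity they stood at 11.87, 12.35, 11.58 and 12.87, beside 11 for all genes. The median difference of all genes was 0.13 in the middle quintile of brightness and 0.04 in the next brighter one. NAD+ metabolism and the other readers, the lists with a call, had median differences of 0.20 and 0.07. They stood at 11.49 and 11.27 by median mean log2 intensity.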

How the data were processed

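The deposited tables hold linear probe intensity. This unit was read from the values: on each array at least 99.99% are whole multiples (within 0.02 of a step) of 1 step between 0.913 and 1.13. The sources used here do not give the scanner, the background correction or a genome build. Per the labels' protocols, RNA was extracted with Trizol, amplified and coupled to Cy5. Probes were named from the platform annotation (25893 of 28264 with 1 symbol), and a gene table kept all these symbols. Negative intensities (310 and 911 on the empty vector arrays, 1 in all on the other 3) were set to 0 and log2(intensity + 1) was taken without further scaling. Each gene took its probe with the highest mean, and those under the 25th percentile (7.34, or 161 units) were left out. limma 3.58.1 in R 4.3.3 (lmFit, eBayes) was fitted to all 5 arrays and 15053 genes, with 2 residual and 3.96 prior degrees of freedom. Tests were two-sided, with Benjamini-Hochberg adjustment over all genes and a threshold of 0.05. The spread of the lone mutant array was taken from the replicated groups. With 2 arrays against 2, exact permutation reaches no p below 0.333 and was not run.

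The members, lists and tests were chosen with earlier results of these data known. Differences are given, per comparison, for members past the threshold and, up to 8, those with the smallest p, and for up to 4 genes of each partner list. Alternatives were 3 scalings, equalized background, an offset of 50, other filters, probe treatments and variance models, a replicate block and leaving out each array, with the main choice of probes and genes kept where the alternative did not concern it. With median centring the genes followed across alternatives all had the same SE, 0.246 for ACOT12 and 0.301 for the mutant against empty vector. The estimate of spread thus differed from the main one, so counts after centring do not isolate the scaling. The main fit was tested on simulated data.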

Additional observations from a re-analysis of the deposited data

How the results depend on the processing

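Against empty vector, 0 members passed with ACOT12 under every alternative run, while genes past the threshold numbered 2 after quantile normalization or cyclic loess, 45 after median centring, 1 with equalized background, an offset of 50, a trended variance or the replicate block, 8 with the mean of all probes and 192 without a filter (0 to 5 with an array left out). For the mutant, BRDT passed after median centring, with the block and without empty vector replicate 2 (1 member; 0 or 1 with an array left out). Genes numbered 8 after quantile normalization, 1446 after median centring (550 higher, 896 lower), 187 after cyclic loess, 10 with equalized background, 8 with the offset of 50, 150 without a filter, 141 with a filter at the 50th percentile, 11 with the mean of probes and 499 with the trended variance (0 to 1986 with an array left out). Between ACOT12 and mutant, 0 members passed after quantile normalization, without a filter and at the 50th percentile (which removes BRDT), and 3 after median centring (BRDT, HDAC4 and KAT8), with 0 to 2 when an array was left out. Genes numbered 5, 1 and 638 under the first 3 of these and 0 to 2343 with an array left out.

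Members' medians moved with median centring (-0.13 for ACOT12, 0.20 for the mutant, -0.29 between them), quantile normalization (-0.007 for the mutant, 0.019 between), cyclic loess (-0.041 and 0.036) and the mean of probes (0.033, -0.12 and 0.16). With an array left out they lay between -0.005 and 0.061, between -0.12 and -0.038, and between 0.05 and 0.15. Directions turned for SIRT4 with ACOT12 against empty vector (-0.029 quantile, -0.018 loess) and against the mutant (-0.051), for HDAC9 (0.10 with the mean of probes), SIRT7 (-0.033) and HDAC3 (-0.001) without ACOT12 replicate 1 (0.662 and 0.456 without ACOT12 replicate 2), for KAT2B between ACOT12 and mutant (-0.03 quantile, -0.088 centred), and there for ACOT12 itself (-0.16 centred, -0.11 loess). The cause was not tested. Whether a replicate number marks a shared origin is not stated in the labels. With 2 pairs, deviations of same-numbered arrays correlated at 0.158 across genes, and ACOT12 replicate 1 and empty vector replicate 1 were the closest arrays (median absolute difference 0.11). With the replicate block genes past the threshold were 1635 for the mutant and 2485 between ACOT12 and mutant, and BRDT read -1.60 (adjusted p = 0.0264) and 2.17 (adjusted p = 0.00574). Without detection flags, signal near the floor cannot be told from background.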
